A study of Mus musculus with 3 samples.

Results

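Colon26 is a line grown from a mouse colon adenocarcinoma, LuM1 and NM11 are its sublines, and the genes described here moved the same way in both sublines against the parental line. Members were chosen by the array values themselves. A gene entered when the mRNA levels of LuM1 and NM11 cells were both above, or both below, the level of Colon26 cells. Of 22911 named genes, 13478 had a ratio to Colon26 in both sublines, and 9179 of these moved the same way, 3875 upward and 5304 downward. The text turns on the 1334 genes that moved at least 2-fold in each subline, 672 higher and 662 lower, which were 4.99% and 4.91% of the genes with a ratio. Because the ratios chose the genes, their levels are a description and carry no test.

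The lines come from female BALB/c mice, and the labels call LuM1 high-metastatic and NM11 low-metastatic. All were grown in the same medium with serum, without other treatment, and cultured for 3 days on flat plates before total RNA was taken. Each line was read by 1 single-color array, and the 3 arrays lay on 1 slide. Both ratios therefore share the Colon26 array, and anything particular to that array or that culture enters both. With 1 array per line, differences have no replicate check, and cell line, culture and array cannot be told apart. Whether the sublines are clones is not given in the sources used here. Agilent Feature Extraction had subtracted the background of each spot. Signals were then scaled so that the 75th percentile of each array became 585.1, and all levels below are such scaled signals. A probe that the scanner software did not call well above background has only a bound, taken against the dimmest signal called well above background on that array or its own, whichever was larger (26.4 in Colon26 cells, 20.1 in LuM1 cells, 19.6 in NM11 cells). Such ratios are written as at least so many-fold. Errors are those of the scanner software, describe technical error only, and had a median of 0.20 on the log2 scale for both ratios.

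As background, a subline is a population grown out of a parental line, often through passage in animals or by selection. Lines of this kind can differ in secreted proteases that cut the extracellular matrix and in chemokines that attract blood cells. Inducible programs often differ as well. NF-kB is a transcription factor held in the cytoplasm by inhibitors such as Nfkbia, and once released it switches on chemokines, cytokines and its own inhibitors. Interferon acts through kinases and a transcription factor complex that holds Stat2 and Irf9, and this complex binds an element in the promoters of antiviral genes.

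Position on the array was examined before the levels. On the Colon26 array 1122 spots were well above background there and on neither other array, 1.89% of its non-control spots. These spots were not spread evenly. An area was called clustered where, within 7 rows and columns to each side, the share of such spots was at least 3 times that of the whole array. Clustered areas held 8.74% of the spots but 561 (50%) of those bright on the Colon26 array alone. On the other arrays the clustered areas were smaller, 2.93% of the spots for LuM1 and 3.30% for NM11, and held 13.2% and 11.1% of the spots bright on that array alone. Inside the areas 10.8% of the spots were bright on the Colon26 array alone, and outside them 1.04%. Inside the areas of the LuM1 and NM11 arrays the shares were 15.8% and 7.19%. High shares inside follow from how the areas were defined, and areas that passed the rule were found on every array.

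**Figure D1:**
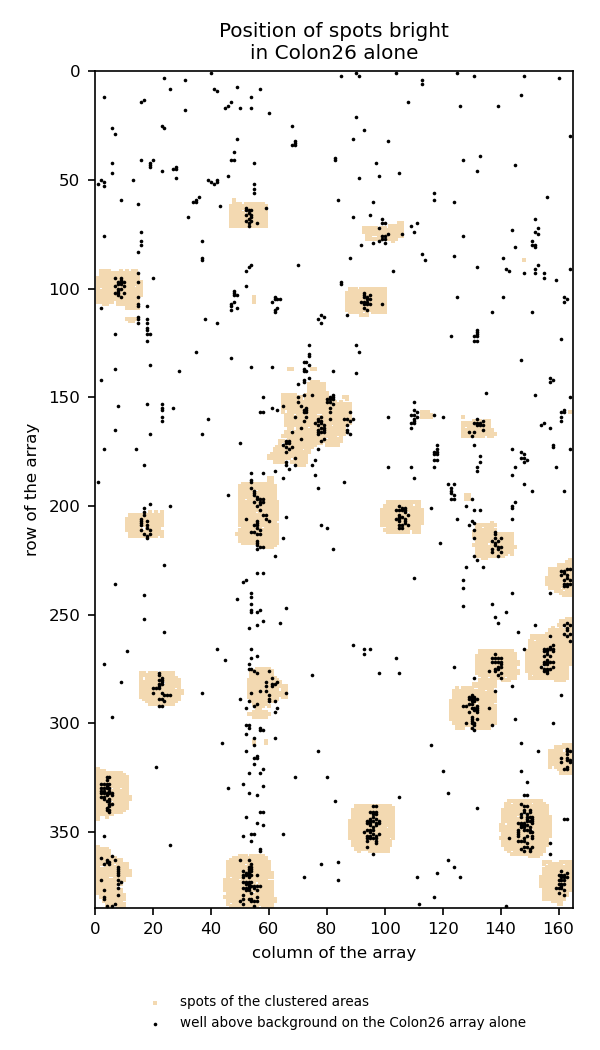
Position of every spot called well above background on the Colon26 array alone (black), by row and column of the array, with the spots of the clustered areas shaded. Of the 1122 spots, 561 lie in the shaded areas, which hold 8.74% of the non-control spots, and the rest lie outside them.

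The clustered areas held a larger share of the lower genes than of the higher ones. In part this follows from how the areas were defined, since a spot bright on the Colon26 array alone is read as lower in both sublines. Among the 662 genes lower in both sublines, 265 (40.0%) were read by a spot in a clustered area, and among the 672 higher genes 56 (8.33%) were. The lower genes that rest on a bound were affected most, 219 of 397 lying in the areas. Another named probe existed for 63 of the lower bound genes in clusters, and in 59 of these no other probe was above background in Colon26 cells. None of the 63 had another probe called lower. Outside the clusters, 54 lower bound genes had another named probe, and in 39 of these no other probe was above background in Colon26 cells. A second probe was called lower in 11 of the 54. Without genes read by a clustered spot, 397 genes remained lower in both sublines, 3.27% of the genes with a ratio there. Lower genes are described below from these 397 unless a spot is said to be clustered or a count is said to include clustered spots.

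**Figure D2:**
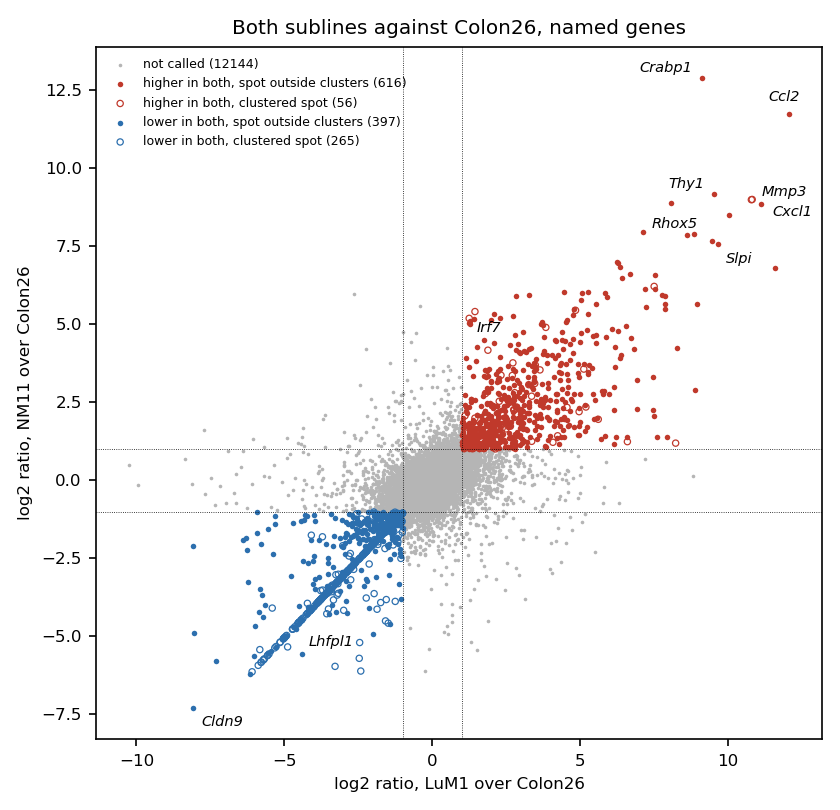
Log2 ratio to Colon26 in LuM1 cells (horizontal axis) against that in NM11 cells (vertical axis) for 13478 genes, each point 1 gene. Dotted lines mark 2-fold, filled colored points are called genes with a spot outside the clustered areas, and open circles are those inside. The 672 higher genes spread to a log2 ratio of 12 and more, whereas many lower genes lie on a diagonal because both sublines were at their bounds.

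Of the 672 higher genes, 464 were measured on all 3 arrays and 208 rested on a bound in Colon26 cells. Of the 662 lower genes, 265 were measured on all 3 arrays and 397 through a bound. At least 4-fold changes were seen in 283 higher and 286 lower genes, and at least 16-fold changes in 68 higher and 76 lower genes. Outside the clusters the 16-fold counts were 64 and 29. Among the 12249 genes measured on all 3 arrays, 8104 moved the same way, 4918 of them by more than the scanner error in both ratios. The members just inside the 2-fold limit on the higher side were *Spa17* (71.2 in Colon26, 145 in LuM1 and 143 in NM11 cells) and *Naprt* (103, 208 and 287 in that order). On the lower side they were *Wnt10a* (16346, 272 and 8162) and *Stk36* (464, 232 and 163). Just outside lay *Decr1* (5011, 10004 and 10548, by a clustered spot) and *Mvp* (963, 1970.4 and 1925) on the higher side. On the lower side *Tmtc4* (1577, 642 and 790.1) and *Iqsec2* (559, 280 and 177) missed the limit. These genes differ from their neighbors across the limit by far less than the scanner error. The balance between directions depended on the scaling. Higher genes made up 50.4% of the 1334 genes, 34.6% when scaled to *Hprt*, 37.6% when scaled to spike-in controls and 63.5% in the authors' processed values. *Hprt*, the internal control of the study, read 11101 in Colon26, 10351 in LuM1 and 15573 in NM11 cells.

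Other probes of the same gene gave a check within each array, although they read the same RNA. Among higher genes, 197 had another probe with a ratio in both sublines. In 182 of these every other probe moved upward, and in 117 every other probe was past 2-fold. Among all 662 lower genes, clustered spots included, the numbers were 104, 93 and 63. Another probe past 2-fold the opposite way was found for 2 higher genes and for no lower gene. Another 250 probes higher and 708 probes lower in both sublines carried no gene name here, and 383 of those 708 lay in clustered areas.

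Of the genes measured on all 3 arrays by a spot outside the clustered areas, *Cxcl1* and *Slpi*, both secreted, had the largest smaller ratio. *Cxcl1* (probe A_55_P2811679), a chemokine that attracts neutrophils, read 45.9 ± 7.47 in Colon26, 102407 ± 10241 in LuM1 and 21436 ± 2144 in NM11 cells. Its level was near the dimmest measurable signal in the parental line and among the brightest in LuM1 cells. The ratios were 2233-fold and 467-fold. *Slpi*, an inhibitor of leukocyte elastase, read 120 in Colon26, 96502 in LuM1 and 22868 in NM11 cells. Its ratios were thus 806-fold and 191-fold by the brighter probe, and the other probe moved upward but did not pass 2-fold in both sublines. *Lcn2*, which binds iron-carrying siderophores, rose from 154 to 75728 in LuM1 and 7731 in NM11 cells, and *C3*, the central complement component, from 114 to 26806 and 5186. Second probes of *Lcn2* and *C3* were also called higher, but the mean log2 ratio of *C3* was 6.69 by the brighter probe and 4.10 by the probe brightest in Colon26 cells.

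Other leading genes were of several kinds. *Rhox5*, an X-linked homeobox gene known from the reproductive tract, read 363 in Colon26, 50726 in LuM1 and 91087 in NM11 cells, and its other probe was called as well. *Dazl*, an RNA-binding protein of germ cells, read 38.8, 1796 and 1974 in the same order, also with a second probe called. *Crabp1*, which binds retinoic acid, was not well above background in Colon26 cells, read 14550.0 in LuM1 cells and reached 199668 in NM11 cells, at least 551-fold and 7561-fold. *Ddt*, a relative of the cytokine Mif, had ratios of 81.1 and 116. *Osmr*, the receptor subunit for oncostatin M, had ratios of 38.5 and 65.7. *Fas*, the death receptor, had ratios of 68.1 and 28.7, and *Gda*, the guanine deaminase, 218 and 61.7. *Sipa1l2*, *Ecscr*, *Sash1* and *Rbpms* were also among the leading measured genes, with ratios between 26.6 and 147.

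Among genes below background in Colon26 cells, *Ccl2* (probe A_51_P286737), a chemokine for monocytes, had the highest bound when each gene is ranked by its smaller ratio. It read 112391 in LuM1 and 90782 in NM11 cells against a Colon26 spot of 6.87 that was not above background, at least 4256-fold and 3438-fold higher. *Ccl7*, its neighbor and relative, read 18394 and 5407. *Thy1*, a surface glycoprotein of fibroblasts and lymphocytes, read 19560.0 and 15416, and *Dcn*, the matrix proteoglycan decorin, read 27503 and 9599. *App*, the amyloid precursor protein, read 7119 and 12442 against a Colon26 spot of 14.2, and a second *App* probe was called higher, although the mean over both probes gave a mean log2 ratio of 6.03 against 8.48. *Bcl3*, a nuclear partner of NF-kB, read 12008 and 6346, and *Hp*, the hemoglobin-binding protein haptoglobin, 10221 and 6213. All of these signals in the sublines lay far above the bound, so the call does not hang on its exact value.

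**Figure D3:**
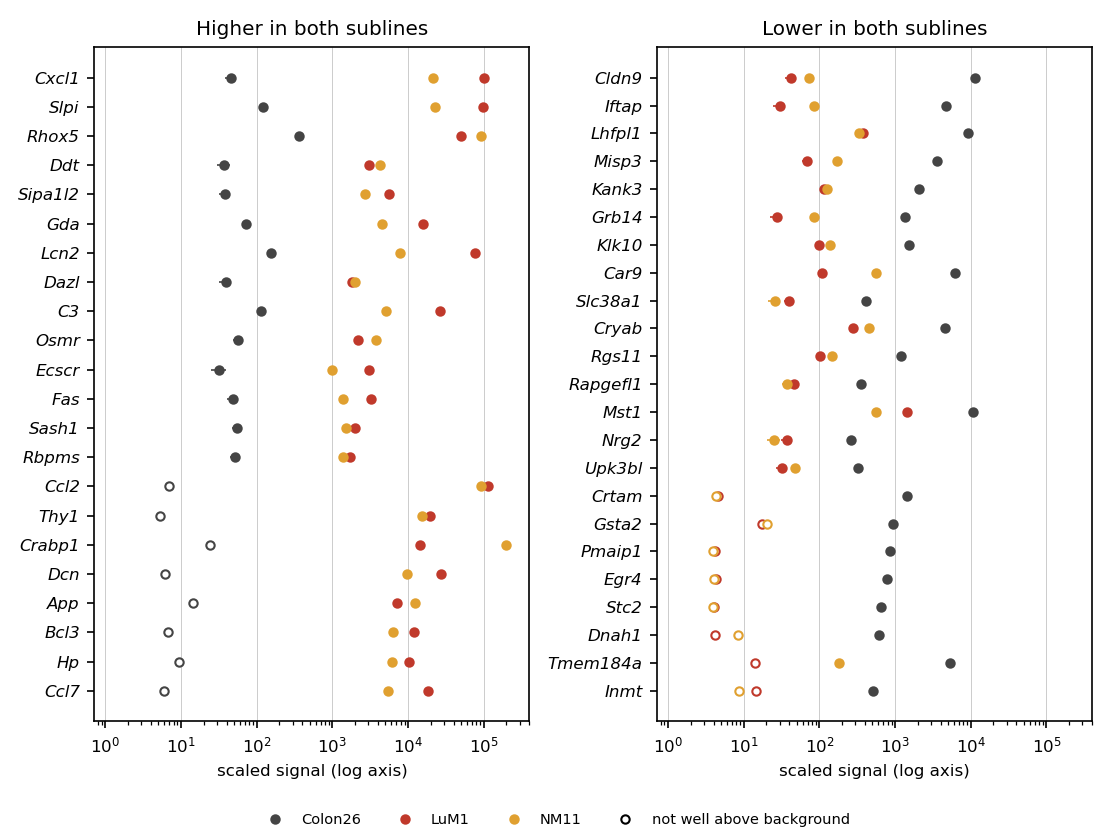
Scaled signal (log axis) of leading measured and bound genes in each direction, those with the largest smaller ratio outside clustered areas, in Colon26, LuM1 and NM11 cells. Points are single arrays with the scanner error, and open points are spots not well above background. In every gene drawn both sublines lie on the same side of Colon26.

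Most NF-kB members and targets with a ratio were higher in both sublines. Of 24 listed genes, 22 had a ratio in both sublines, 15 were called higher and none lower, and the median of the mean log2 ratio was 2.56 against -0.09 over all genes with a ratio. The count stayed between 14 and 15 under the alternatives. For this and the other lists, these alternatives all kept the 2-fold threshold in each subline, and counts at other thresholds were not made. The list shares *Ccl2*, *Cxcl1* and *Cxcl2* with the chemokines and *Lcn2* with the acute phase genes. It also shares *Il6* with the cytokines and growth factors, so these lists are not separate results. The members include the pathway's own feedback. *Nfkbia*, the inhibitor that holds NF-kB in the cytoplasm, read 3659.6 in Colon26, 21096 in LuM1 and 14189 in NM11 cells. *Nfkbie*, a second inhibitor, had ratios of 6.21 and 5.92, and *Nfkbiz*, an inducible nuclear member of that family, 20.4 and 11. *Relb*, a subunit of the factor, had ratios of 2.64 and 3.02. *Birc3* and *Traf1*, adaptor proteins of the TNF receptor pathway, had bounds of at least 8.02 and 7.86 and ratios of 7.56 and 7.13. *Vcam1*, an adhesion molecule, had ratios of 4.67 and 7.02.

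The cytokines on that list were near or below background in Colon26 cells. *Il6* read 14.2 in Colon26 (not above background), 4770.3 in LuM1 and 1969 in NM11 cells. Its spot lay in a clustered area, and a second probe was called higher. *Csf2* and *Csf3*, growth factors of macrophages and granulocytes, read 616 and 831 in LuM1 cells and 926 and 181 in NM11 cells, again from below background. Over the wider list of cytokines and growth factors, 8 of 37 were higher and 2 lower. *Areg*, a ligand of the EGF receptor, rose from 281 to 4227 in LuM1 and 1441 in NM11 cells, and *Vegfd* rose from 477 to 1833 and 2685. *Pdgfc* and *Vegfa* were the lower ones, with the reservation that the 3 other *Vegfa* probes were not called.

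Promoters of *Cxcl1* and *Il6* from the RefSeq table (assembly GRCm38.p6, from 250 bases before to 50 after the start) were chosen because each holds a match to the NF-kB motif (GGGA, any 2 bases, then TTCC), written in capitals, 71 and 44 bases before the start site. In *Cxcl1* the capitals cover 2 overlapping matches, 1 on each strand.
Cxcl1, chr5:90890995-90891294, plus strand: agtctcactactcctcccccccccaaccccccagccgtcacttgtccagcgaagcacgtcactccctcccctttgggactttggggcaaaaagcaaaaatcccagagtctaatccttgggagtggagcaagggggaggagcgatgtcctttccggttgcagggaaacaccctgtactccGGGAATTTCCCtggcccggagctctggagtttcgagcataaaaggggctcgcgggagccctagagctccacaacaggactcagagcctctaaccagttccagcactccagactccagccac
Il6, chr5:30012864-30013163, plus strand: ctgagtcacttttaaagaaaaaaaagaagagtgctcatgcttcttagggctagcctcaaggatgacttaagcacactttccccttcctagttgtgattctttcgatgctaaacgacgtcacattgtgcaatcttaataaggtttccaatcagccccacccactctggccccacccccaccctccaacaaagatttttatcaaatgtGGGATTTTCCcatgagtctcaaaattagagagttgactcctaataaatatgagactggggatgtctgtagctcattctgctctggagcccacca

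Of 31 listed chemokines, 15 had a ratio, 7 were higher in both sublines and 1, *Cxcl13* with a clustered spot, was lower. The summed signal of its probes was 3398 in Colon26, 371453 in LuM1 and 143558 in NM11 cells. Besides *Cxcl1*, *Ccl2* and *Ccl7* the higher ones were *Cxcl5*, *Cxcl16*, *Ccl8* and *Cxcl2*. *Cxcl5*, another neutrophil chemokine, read 47428 and 13581 in the sublines and was not above background in Colon26 cells, at least 1796-fold and 514-fold higher, although its spot lay in a clustered area. *Ccl8* and *Cxcl2* were dim, with 71.2 and 55.2 in NM11 cells.

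Acute phase and complement genes had the highest share of all lists. Of 20 listed genes 10 had a ratio and 9 were higher, with a median of 3.71 and 7 to 9 higher under the alternatives. *Saa3*, a serum amyloid protein made outside the liver, was not well above background in Colon26 cells (27.3) and read 84512 in LuM1 and 3069 in NM11 cells, at least 3099-fold and 113-fold. *Saa1* rose from 241 to 13782 and 649. The serine proteases of the first complement component moved with them, *C1s1* from 287 to 7933 and 1961 and *C1ra* from 287 to 4026 and 1825. *Saa1* with *Saa2*, *C1ra* with *C1rb* and *C1s1* with *C1s2* are near-identical copies, and probes may share their signal.

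Most interferon-stimulated genes with a ratio were higher in both sublines. Of 48 listed genes 42 had a ratio, 27 were called higher and none lower, and 37 moved upward in both sublines at any size. The median was 2.11, and 17 to 32 genes were higher under the alternatives. *Irf7*, the transcription factor that amplifies the interferon response, read 397 in Colon26, 2470.0 in LuM1 and 8122 in NM11 cells, and its other probe was called. *Gbp2*, a guanylate-binding protein that acts on intracellular pathogens, read 28.6, 368 and 919. *Usp18*, which restrains the interferon receptor, read 49.7, 420 and 1341. Subunits of the factor that binds interferon promoters were among the members. *Stat2* rose from 296 to 1083 and 2123, and *Irf9* from 421 to 1139.7 and 2509, although the other *Irf9* probe was not called. The oligoadenylate synthases, which sense double-stranded RNA, ranged widely, *Oas1a* with ratios of 3.70 and 7.54 and *Oas2*, read by a clustered spot, with 2.71 and 42.6. *Ifi27l2a* had ratios of 2.42 and 34.7.

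Antigen presentation by MHC class I is induced by the same signals, and 7 of its 21 genes with a ratio were higher and none lower, with a median of 1.01. *B2m*, the common light chain, read 25956 in Colon26, 64026 in LuM1 and 58345 in NM11 cells. The proteasome subunits that shape peptides for this pathway, *Psmb9* and *Psmb8*, had ratios of 7.93 and 2.55 in LuM1 cells and 4.92 and 2.94 in NM11 cells. *Nlrc5*, the activator of these genes, rose from 105 to 2814 and 1771, but its other probe was not called. *Erap1*, *H2-T10* and *H2-T22* had ratios between 2.30 and 3.14.

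Promoters of *Gbp2* and *Irgm2*, an immunity-related GTPase read by a clustered spot (132 in Colon26, 661 in LuM1 and 1370.1 in NM11 cells), were chosen for the interferon response element (GAAA, any 2 bases, then GAAA), in capitals. The match lies on the opposite strand in *Gbp2*, 59 bases before the start site, and on the printed strand in *Irgm2*, 64 bases before it.
Gbp2, chr3:142620413-142620712, plus strand: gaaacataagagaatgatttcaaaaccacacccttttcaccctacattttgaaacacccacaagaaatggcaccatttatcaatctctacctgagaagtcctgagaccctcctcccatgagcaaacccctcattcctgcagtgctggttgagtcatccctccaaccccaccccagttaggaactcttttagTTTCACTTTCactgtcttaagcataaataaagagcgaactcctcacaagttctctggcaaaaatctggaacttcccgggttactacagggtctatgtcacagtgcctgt
Irgm2, chr11:58214727-58215026, plus strand: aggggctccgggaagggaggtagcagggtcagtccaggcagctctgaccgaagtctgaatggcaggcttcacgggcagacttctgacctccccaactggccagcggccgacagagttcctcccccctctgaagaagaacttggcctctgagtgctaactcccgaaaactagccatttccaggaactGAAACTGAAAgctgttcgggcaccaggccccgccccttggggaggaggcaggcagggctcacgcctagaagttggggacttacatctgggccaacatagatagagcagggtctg

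About as many secreted matrix proteases were higher in both sublines as were not called. Of 34 listed genes 23 had a ratio, 11 were higher and none lower, 16 moved upward and 2 downward in both at any size, and the median was 1.0. Under the alternatives 7 to 12 were higher. *Mmp3* (probe A_51_P255699), stromelysin 1, which the title of the series names, read 58.6 in Colon26, 103171 in LuM1 and 29944 in NM11 cells, 1762-fold and 511-fold higher. Its spot lay in a clustered area of the Colon26 array, and it has 1 named probe. *Mmp13*, a collagenase, read 6283 and 1609 against 27.0, not well above background, in Colon26 cells. *Mmp2*, gelatinase A, read 1512 in LuM1 and 1691 in NM11 cells from below background, at least 57.3-fold and 64.0-fold. *Mmp19* rose from 503 to 5397 and 4675 with a second probe called, and *Mmp10* from 50.7 to 2708 and 369. *Plau*, the urokinase that activates plasminogen, had ratios of 7.82 and 4.40. *Ctsk*, the bone-resorbing cathepsin, was a member with a ratio of 299 in LuM1 and 2.29 in NM11 cells, by a clustered spot.

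Of 32 collagens and matrix proteins with a ratio, 6 were higher (18.75%) and 2 lower (6.25%). Over all genes with a ratio the shares were 4.99% and 4.91%, so the lower share was near that of all genes. *Col3a1* rose from 294 to 1169.6 and 2655, *Ecm1* from 1985 to 21729 and 7246, and *Tgfbi*, by a clustered spot, from 37.9 to 423 and 491. *Fbn1*, fibrillin, fell from 315 to 65.0 and 106, and *Postn*, periostin, fell from 88.5 to below background in both. Of 11 integrins with a ratio 1 was higher and 1 lower (9.09% each). *Itgb4* was higher with 348, 7749.8 and 1973 in Colon26, LuM1 and NM11 cells, and *Itgb7* was lower with 17761, 3109 and 4989.8. Of 12 protease inhibitors with a ratio, *Slpi*, *Serpinb6b* and *Serpinb9* were higher (25%) and *Cst6* was lower (8.33%).

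Promoters of *Mmp3* and *Mmp13* were chosen for the AP-1 motif TGANTCA, in capitals, 46 and 35 bases before the start sites. AP-1 is a pair of Fos and Jun proteins. *Fos* itself was not above background in Colon26 cells (27.4) and read 203 in LuM1 and 566 in NM11 cells.
Mmp3, chr9:7445572-7445871, plus strand: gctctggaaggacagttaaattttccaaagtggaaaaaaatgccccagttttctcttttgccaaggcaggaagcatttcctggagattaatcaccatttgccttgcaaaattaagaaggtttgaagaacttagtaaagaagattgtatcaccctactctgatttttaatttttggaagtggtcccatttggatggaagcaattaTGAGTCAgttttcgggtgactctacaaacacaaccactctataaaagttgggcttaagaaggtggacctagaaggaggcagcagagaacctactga
Mmp13, chr9:7272264-7272563, plus strand: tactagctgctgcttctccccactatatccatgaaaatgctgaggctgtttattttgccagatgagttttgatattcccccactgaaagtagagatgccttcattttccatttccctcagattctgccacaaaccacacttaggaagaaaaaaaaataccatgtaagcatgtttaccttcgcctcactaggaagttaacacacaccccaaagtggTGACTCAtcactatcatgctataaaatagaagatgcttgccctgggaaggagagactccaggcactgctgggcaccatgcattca

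Genes of cholesterol synthesis were well measured in Colon26 cells and, like those of MHC class I, moved by small ratios. Of 22 listed genes 20 had a ratio, 10 were higher and none lower, 16 moved upward in both at any size, and the median was 1.12. The count lay between 8 and 13 under the alternatives. *Hsd17b7*, a reductase of the late pathway, read 174 in Colon26, 1629 in LuM1 and 1753 in NM11 cells, with its other probe called. *Hmgcs1*, which makes the HMG-CoA used by the rate-limiting reductase, read 1953, 9369 and 11346 by a clustered spot. *Idi1* had ratios of 4.19 and 5.29 and *Fdft1*, squalene synthase, 2.67 and 2.99. *Srebf2*, the transcription factor that switches the pathway on when sterols are low, had ratios of 2.22 and 2.36. *Fdps*, *Cyp51*, *Dhcr7*, *Mvd* and *Nsdhl* completed the 10, with ratios from 2.07 to 5.12. In 9 of the 10 the sublines stood within 2-fold of each other. The promoter of *Hsd17b7* was chosen because it holds 3 matches to the CCAAT box on the opposite strand, in capitals, the first 165 bases before the start site.
Hsd17b7, chr1:169969156-169969455, minus strand: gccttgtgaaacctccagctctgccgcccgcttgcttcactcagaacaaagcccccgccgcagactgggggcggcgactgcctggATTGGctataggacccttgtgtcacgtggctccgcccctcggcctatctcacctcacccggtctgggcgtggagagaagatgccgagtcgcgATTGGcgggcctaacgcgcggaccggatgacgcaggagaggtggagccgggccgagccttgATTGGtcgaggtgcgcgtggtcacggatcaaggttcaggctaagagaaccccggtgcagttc

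Of 23 genes of the TGF-beta and BMP response 7 were higher and none lower, with a median of 0.12. At any size 10 moved upward and 9 downward in both sublines. *Id1* and *Id3*, targets of BMP that inhibit differentiation factors, rose from 773 to 6296 and 4568 and from 955 to 10439 and 9488. *Bambi*, a decoy receptor, and *Fst*, which binds activin, are antagonists, with bounds of at least 13.8 and 24.1 and ratios of 8.53 and 17.9. *Ltbp2*, *Tgfbr1* and *Tgfbr3* were the others. Of mesenchymal transition genes 2 of 18 were higher (*Snai1*, from 190 to 1625 and 1251, and *Prrx1*) and 3 were lower (*Snai2*, from 8332 to 2138 and 3810.5, *Cdh11*, whose other probe was not called, and *Myl9*). The repressors Snai1 and Snai2, which belong to one family, thus moved in opposite directions.

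**Figure D4:**
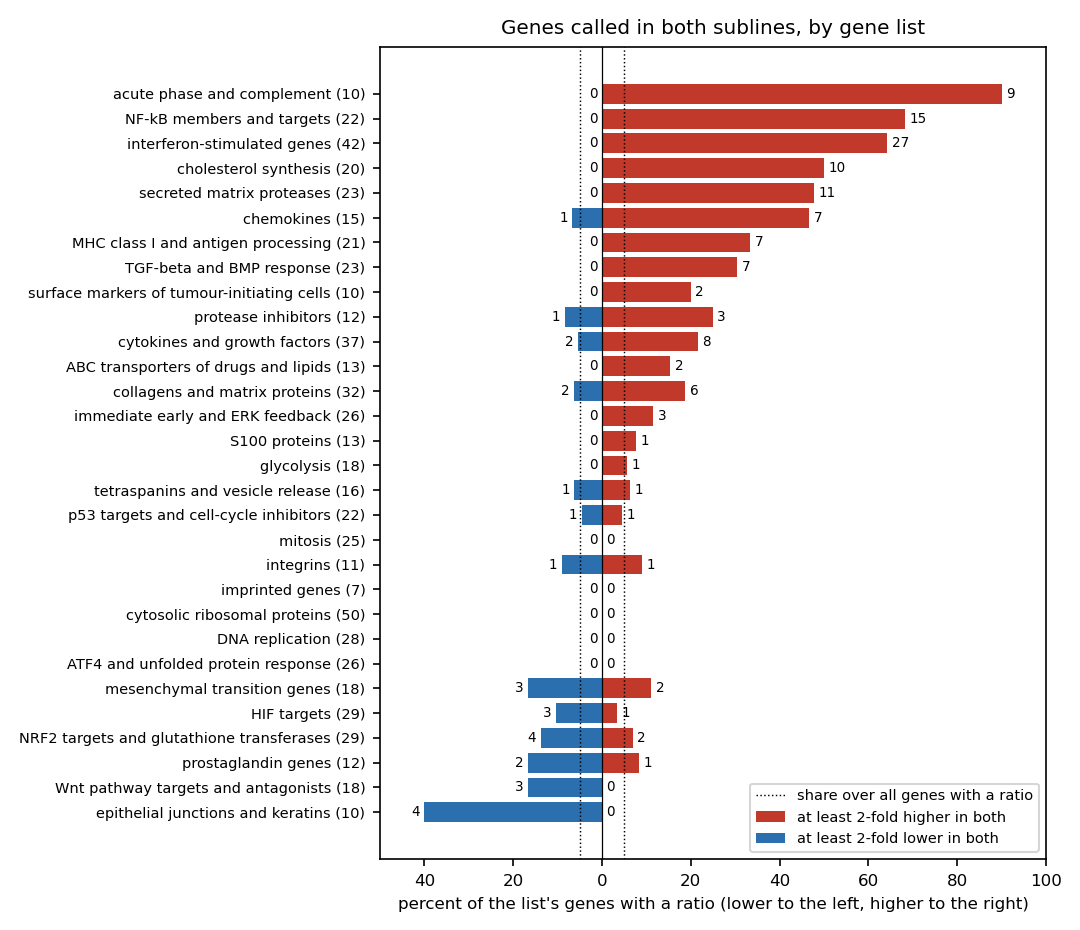
Percent of each list's genes with a ratio that were at least 2-fold higher (right) or lower (left) in both sublines than in Colon26, with the counts beside the bars and the number of genes with a ratio after each list's name. Dotted lines mark the shares over all genes, 4.99% and 4.91%. Acute phase and complement genes have the longest bar to the right (9 of 10) and epithelial junctions and keratins to the left (4 of 10).

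Some programs that often differ between cell lines held no called gene. All 50 cytosolic ribosomal proteins, 28 replication genes, 25 mitosis genes and 26 genes of the ATF4 and unfolded protein response had a ratio, and none was called in either direction. Their medians lay between -0.36 and -0.20. Over all genes with a ratio 4.99% were higher and 4.91% lower, and the single calls below are to be read against these shares. Of 18 glycolysis genes 1, *Aldoc*, was higher (5.56%). Of 29 HIF targets, genes induced when oxygen is low, *Adm* was higher (3.45%) and *Stc2*, *Car9* and *Vegfa* were lower (10.3%). ABC transporters held 2 higher genes of 13, *Abcb1a*, a multidrug pump, with 81.8, 568 and 414 in Colon26, LuM1 and NM11 cells, and *Abcg4*, with 49.9, 133 and 182. Of 26 immediate early and ERK feedback genes 3 were higher, *Fos*, the feedback inhibitor *Spry1* and the transcription factor *Etv1*. Of 22 p53 targets *Fas* was higher and *Pmaip1* lower (4.55% each). Of 12 prostaglandin genes the receptor *Ptger4* was higher, by a clustered spot, and the synthases *Ptgis* and *Hpgds* were lower, the second by a clustered spot. None of the 7 imprinted genes with a ratio was called. *Thy1* and *Alcam* were the 2 higher of 10 surface markers of tumor-initiating cells. Of 16 tetraspanins and vesicle genes *Tspan15* was lower, by a clustered spot, and *Cd81* was higher (6.25% each). *Cd81*, found on secreted vesicles, rose from 4619 to 25721 and 19050.4, with a second probe called.

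*Cldn9* (probe A_51_P506961), a claudin of tight junctions, had the largest smaller fall among genes measured on all 3 arrays, reading 11445 in Colon26, 41.8 in LuM1 and 73.6 in NM11 cells, 274-fold and 155-fold lower. *Iftap*, a partner of intraflagellar transport, read 4697, 29.8 and 84.3 in that order, with a second probe called lower. *Lhfpl1* read 9089, 374 and 334, and *Misp3* read 3554, 67.7 and 173. *Car9*, a carbonic anhydrase at the cell surface and a HIF target, fell from 6264 to 110 in LuM1 and 563 in NM11 cells, also with a second probe. *Cryab*, a small heat-shock protein, fell from 4539.8 to 279 and 457. *Mst1*, the ligand of the receptor Ron, fell from 10741 to 1457 and 563, and *Slc38a1*, a glutamine transporter, from 411 to 39.4 and 25.8. *Kank3*, *Grb14*, *Klk10*, *Rgs11*, *Rapgefl1*, *Nrg2* and *Upk3bl* completed the first 15, with falls between 6.83-fold and 49.8-fold.

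Below background in one or both sublines, the largest falls outside the clusters were those of *Crtam*, *Gsta2*, *Pmaip1*, *Egr4*, *Stc2*, *Dnah1*, *Tmem184a* and *Inmt*. *Crtam*, an adhesion molecule of lymphocytes, read 1447 in Colon26 cells and was at least 71.9-fold lower in LuM1 and 73.9-fold lower in NM11 cells. *Pmaip1*, the pro-apoptotic Noxa, read 871 and was at least 43.3-fold and 44.5-fold lower. *Stc2*, a secreted glycoprotein, read 649. *Tmem184a* read 5324 in Colon26 and 181 in NM11 cells and was below background in LuM1 cells. *Dnah1* and *Inmt* read 617 and 512 in Colon26 cells. Each of these rests on 1 probe with a ratio. Within clustered areas, *Phgr1* (1372 in Colon26 cells), *Cyp2b10* (1189), *Olfr1329* (1114) and *A1cf* (1059) had the largest bounds, at least 52.6-fold to 70.1-fold, and no other probe with a ratio.

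Lower genes were also counted by list. Beside lower genes already named with other lists, and those of the marker lists below, they fell among epithelial junctions, Wnt genes and glutathione transferases. Of 10 epithelial junction genes and keratins with a ratio 4 were lower and none higher. At any size 3 moved upward and 4 downward in both sublines, and the median was -0.20 against -0.09 over all genes. The summed signal of the list was 5949 in Colon26, 5442 in LuM1 and 5450 in NM11 cells. *Krt20*, a keratin of the intestinal surface, fell from 651 to 54.5 in LuM1 and 157 in NM11 cells, and *Dsc2*, a desmosomal cadherin, from 147 to below background in both. *Pkp3*, a desmosomal plaque protein, read 56.2 in Colon26 cells and was at least 2.79-fold and 2.87-fold lower. The list was sparse, since 10 of its 30 genes had a ratio. Of 18 Wnt genes 3 were lower, with a list median of -0.68. *Wnt10b*, a Wnt ligand, read 1289 in Colon26 and 51.2 in NM11 cells and was below background in LuM1 cells, with a second probe called. *Wnt10a* fell from 16346 to 272 in LuM1 cells but to 8162 in NM11 cells, at the 2-fold limit. *Apcdd1*, a Wnt antagonist, fell from 492 to 24.3 and 203. Of 29 NRF2 targets and glutathione transferases 4 were lower and 2 higher. *Gsta2*, *Gsta3*, *Gsta4* and *Nqo1*, enzymes that detoxify electrophiles, were lower, with *Gsta3* in a clustered area. *Mgst1* and *Gstt1*, which have related functions, were higher.

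The sublines did not reach the same levels. Among the 672 higher genes the levels of LuM1 and NM11 cells lay within 2-fold of each other in 417 (62.1%), LuM1 was at least 2-fold above NM11 in 192 and NM11 above LuM1 in 63. Among the 265 lower genes measured in both, which include 46 read by a clustered spot, 212 (80.0%) lay within 2-fold. Over all 12851 genes measured in both sublines 84.4% did. With other scalings, or a normexp background correction, LuM1 was at least 2-fold above NM11 in 162 to 304 of the 672 genes and NM11 above LuM1 in 31 to 63.

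The order of the sublines differed between groups. Of the 27 higher interferon-stimulated genes NM11 was at least 2-fold above LuM1 in 19 and LuM1 above NM11 in none, and the same settings gave 11 to 19. Of the 9 higher acute phase and complement genes LuM1 was at least 2-fold above NM11 in 7 and the reverse held in none, with 7 to 9 under those settings. Chemokines (5 of 7) and matrix proteases (5 of 11) leaned the same way as the acute phase genes. *S100a8*, part of calprotectin and the higher one of 13 S100 genes with a ratio, read 38.4 in Colon26, 18268 in LuM1 and 287 in NM11 cells. At the other end, *Crabp1* was 13.7-fold higher in NM11 than in LuM1 cells. In 123 genes the sublines differed from Colon26 by more than 2-fold in opposite directions, 69 with LuM1 higher and 54 with NM11 higher, and these are not members.

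**Figure D5:**
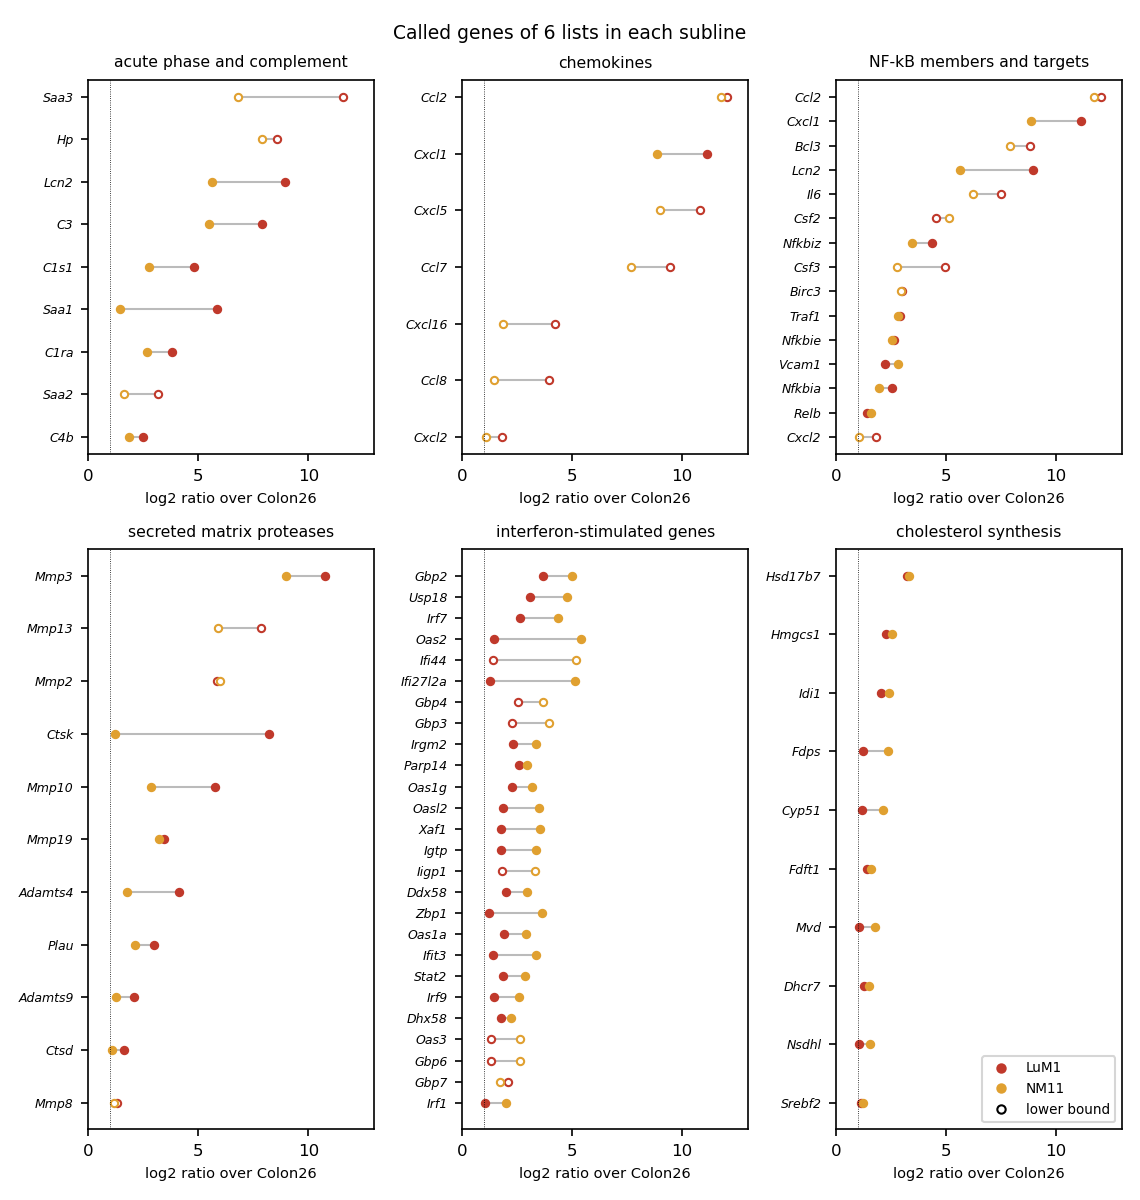
Log2 ratio over Colon26 in LuM1 cells (red) and NM11 cells (yellow) for called genes of 6 lists, with a gray line between both values of a gene, open points where Colon26 was not well above background (lower bounds), and the 2-fold limit dotted. Yellow points lie to the right of red ones in every interferon-stimulated gene drawn but *Gbp7*, and red points to the right in all 9 acute phase and complement genes.

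Higher genes often lay beside each other in the genome. Ordered by position in the gene table, 158 of the 672 higher genes (23.5%) had another higher gene as the next gene with a ratio on either side, whereas 9.46% of all genes with a ratio had one. Among all 662 lower genes, clustered spots included, the share was 17.1%, against 9.53% of all genes with a ratio. Runs of 3 or more consecutive called genes, clustered spots included, numbered 15 on the higher side and 5 on the lower side. The longest was the metalloprotease run *Mmp13*, *Mmp1b*, *Mmp3*, *Mmp10* and *Mmp8*. Others were the chemokines *Ccl2*, *Ccl7* and *Ccl8*, the guanylate-binding proteins *Gbp7*, *Gbp3*, *Gbp2b* and *Gbp2*, the synthases *Oas1c*, *Oas1f*, *Oas1g* and *Oas1a*, and the complement proteases *C1ra*, *C1s1*, *C1rb* and *C1s2*. The amyloid genes *Saa3*, *Saa1* and *Saa2*, the caspases *Casp1*, *Casp4* and *Casp12*, the serpins *Serpinb1a*, *Serpinb6b* and *Serpinb9*, and *Ddt* with *Gstt3*, *Gstt1* and *Gstt2* also formed runs. On the lower side *Gsta4* and *Gsta2* stood in a run, and *Cyp2s1*, *Cyp2b10* and *Vmn1r184* formed one in which all 3 spots were clustered. Many of these are families of near-identical copies, whose probes can share signal, so members of a run are not independent of each other.

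Promoter letters were compared over the 10719 genes with a ratio and an entry in the RefSeq table, 509 of them higher and 283 lower in both sublines. Searches covered 11 motifs, on both strands except for the TATA box. These were TGANTCA for AP-1, TTCNNNGAA for STAT, GGAATG for TEAD, ACGTG for HIF, TGACGTCA for the cAMP response element, CAGACA for SMAD, CAGGTG for the E-box of the Snail and Zeb type, TATAAA for the TATA box and CCAAT for its box, beside both motifs spelled out above. The interferon response element was found in 7.66% of the higher and 3.53% of the lower promoters, against 3.14% of all. Of 17 higher interferon-stimulated genes with an entry 11 held it (64.7%), and of 10 higher NF-kB genes 4 held the NF-kB motif (40.0%), which 1.45% of all promoters held. The AP-1 motif was found in 9.63% of the higher, 6.71% of the lower and 5.47% of all promoters, and in 3 of 7 higher matrix proteases. The CCAAT box was found in 7 of 8 higher cholesterol genes but in 39.2% of all promoters. The lists were drawn up by pathway, and their members that were not called were not counted apart. Shares within a list can therefore come from the choice of the list and say nothing on the shared change. Among lower genes, CAGGTG was found in 25.8% of promoters against 17.4% of all. A match is a string of letters in a window of 300 bases and does not show binding.

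The identity of the lines was examined with marker lists. Of 18 colon epithelium markers 6 were well above background in Colon26, 7 in LuM1 and 6 in NM11 cells, and *Cdh1*, *Cdx1*, *Vil1*, *Krt18*, *Krt19*, *Cdh17*, *Lgr5* and *Muc2* were so on no array. *Krt20* and *Lgals4* were so on all 3 arrays and were lower in both sublines. A minority of the listed markers was thus above background on each array, and the epithelial origin that the label names was not tested further. The summed signal of the colon epithelium markers was 1411 in Colon26, 604 in LuM1 and 506 in NM11 cells. Of 11 fibroblast and stroma markers 7, 8 and 8 were above background in the same order, with summed signals of 66518, 55561 and 121264. On that list *Thy1*, *Dcn*, *Pdgfra* and *Col3a1* were higher and *Postn* lower in both sublines. Of 14 myeloid markers 5, 6 and 5 were above background, none was called, and *Ptprc*, *Adgre1* and *Spi1* were so on no array. The summed signal of the myeloid markers was 7066 in Colon26, 17116 in LuM1 and 6250 in NM11 cells. Lymphoid, endothelial and erythroid lists had 2 to 4 markers above background per array, and *Cd3g*, *Cd8a*, *Cdh5*, *Kdr* and *Alas2* were so on no array. *Egfl7* was the higher endothelial marker and *Lck* the lower lymphoid one. The part of other cells in these results was not tested beyond these values. In bulk RNA, fewer cells of a type and less RNA per cell cannot be told apart.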

How the data were processed

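Total RNA (0.1 µg) of each line was labeled with Cy3 by the study and read on Agilent mouse arrays, 1 per line. Per the file headers, Agilent Feature Extraction 11.5.1.1 produced background-subtracted, detrended signal intensities that were not scaled between arrays. The authors' processed intensities equal these signals multiplied by a single number for each array, which was 0.654 in Colon26 (column median 22.6), 0.829 in LuM1 (35.4) and 0.706 in NM11 (22.2), on a linear scale without gene centering, and how that number was set is not given in the sources used here. They served as an alternative.

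Control spots and outlier spots (74 to 137 per array) were left out, no spot was saturated, and 49.9% to 53.8% of the probes were well above background. Repeat spots of a probe had a median SD of 0.035 to 0.040 on the log2 scale. Signals were scaled to the 75th percentile (551.5 to 625.1 before scaling). With 1 array per line no test was made, and precision is limited by that number.

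Accessions in the RefSeq gene table of GRCm38.p6 gave a name to 32994 of 56605 probes (58.3%) and thus 22911 genes. The array was designed on an older assembly, so no gene coordinates are printed beyond those of the RefSeq promoters. A gene was read by its named probe with the highest mean log2 signal. The members and the 36 gene and marker lists were chosen with earlier results of these data known. Genes named were, in each direction, the 15 measured and the 8 bound genes with the largest smaller ratio outside clusters, up to 4 per list, clustered examples, *Hprt*, *Mmp3* and members of runs. Predicted genes are counted but not named. Some genes are counted but not reported by name here, and they are left out of the plots of single genes. Further list members were named after their values were seen. The promoter table has no entry for *Ccl2*, *Thy1*, *Dcn*, *Hp*, *Cxcl5*, *Usp18*, *Nlrc5* and *Cldn9*. Alternatives covered scaling, background correction (normexp of limma 3.58.1, offset 50, on median spot brightness, R 4.3.3), detection, choice of probe, threshold and clustered spots. Counts within lists were not recomputed at other thresholds or with other rules for clustered spots. The counting was tested on simulated data. Python 3.11.15, numpy 2.4.6, pandas 2.3.3 and matplotlib 3.10.9 were used.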

Additional observations from a re-analysis of the deposited data

How the results depend on the processing

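Against 672 higher and 662 lower genes, a 4-fold threshold left 283 and 286, and a threshold on the mean of both log2 ratios gave 1053 and 1043. Normexp background correction left 410 lower genes, with 465 higher ones. The looser detection rule and no filter on dim probes each gave 955 higher and 1441 lower genes, identical because dim spots hold an error estimate in place of a signal. Leaving out clustered spots before probes were chosen gave 402 lower genes, a window of 4 gave 364, and 2 times the share gave 353. Among alternatives chosen after seeing the data, leaving out spots clustered on any array gave 384 lower genes, genes above background on all 3 arrays alone 464 higher and 265 lower, and leaving out genes read by a clustered spot 397 lower. In the other settings both counts were within 1.5 times the main ones, with 478 higher and 902 lower when scaled to *Hprt*, 530 and 878 with spike-in controls and 846 and 487 in the authors' values. The median over measured genes shifted by -0.19, -0.16 and 0.24 in these. Without clustered spots 61.0% of the calls were higher, and without the filter 39.9%. Of 1486 recomputed mean log2 ratios of the 125 named genes, none changed sign, but 409 moved by more than the scanner error. Moves over 1.5 times were seen in 86 genes with normexp, all toward no change, in 40 without the filter on dim probes, all away from it, and in none under the other scalings. With the mean over probes 15 genes moved so far, *Slpi* from 8.62 to 5.03, *App* from 8.48 to 6.03, *C3* from 6.69 to 5.4, *Fas* from 5.47 to 3.32, *Nlrc5* from 4.41 to 2.93, *Alcam* from 6.40 to 5.21, *Crabp1* from 11 to 9.68, *Osmr* from 5.65 to 4.83, *Ptger4* from 3.03 to 1.29, *Dnah1* from -4.96 to -2.90, *Car9* from -4.65 to -4.06, *Tspan15* from -1.90 to -0.21 and *Vegfa* from -1.42 to -0.58, while *Dazl* (5.6 to 7.05) and *Lcn2* (7.29 to 8.10) moved away from no change. Without clustered spots *Il6* moved from 6.86 to 5.80. In the cholesterol list the order of the sublines was not stable, since the median difference between them changed sign when scaled to *Hprt* or the spike-in controls and in the authors' values.

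No paired analysis was possible because each line has 1 array. The slide could not serve as a block, since all arrays lay on 1 slide. Ratios of genes below background depend on the dimmest measurable signal, so lower genes with a dim parental signal have small bounds only.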
